A study of Mus musculus with 2 samples.

Results

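Deep intronic accessible regions are stretches of open chromatin inside the introns of protein-coding genes, far from any place where a transcript begins. They were chosen by position alone. A region of replicate 1 qualified if it overlapped a region of replicate 2 by at least 1 bp, lay on chromosomes 1 to 19 and was more than 10 kb from every transcript start annotated by GENCODE M21. Its midpoint also had to fall in the body of a protein-coding gene and outside all exons of such genes. Of 46876 autosomal regions shared by both libraries, 5470 met the rule, 11.7% (95% exact binomial interval 11.4 to 12), and they made up 38% of the 14390 shared regions more than 10 kb from a start. The rest comprised 20652 regions within 1 kb of a start (promoter regions), 11834 between 1 and 10 kb from one (start-proximal), 8591 deep intergenic and 329 deep exonic regions, the latter both more than 10 kb away.

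DNase-seq maps the places where the enzyme DNase I cuts nuclear DNA that nucleosomes do not cover. The tissue was hippocampus, which the labels call a layer of hippocampus, from male mice aged 10 days. The mice were B6CASTF1/J, offspring of a cross between C57BL/6J and CAST/EiJ, and the data form 1 group of 2 libraries, called biological replicates 1 and 2, with no treatment or second condition. Each library has its own tissue sample, described as 3 males, and both carry 1 donor label, so the pair may or may not share animals. Because mm10 is the genome of C57BL/6J, the sequences below are those of 1 parent, and an effect of CAST/EiJ alleles on the values was not tested. With 2 libraries and 1 group there is no test between groups. Both libraries' values are given instead, with exact intervals that cover counting error only and do not measure the spread between animals.

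Enhancers are stretches of DNA, often bound by several transcription factors, that raise transcription from a promoter at a distance, and many of them lie in introns of the gene they act on or of a neighbour. Other open sites hold CTCF, a zinc finger protein that stops the loops that cohesin extrudes along the chromosome and so helps to set which enhancers meet which promoters. In the developing hippocampus, basic helix-loop-helix factors of the NEUROD family drive the differentiation of excitatory neurons, and nuclear factor I (NFI) proteins act in both neurons and glia. DNase-seq shows that a site is open, not whether it is an enhancer, an insulator or neither, nor which gene it serves.

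The members can be read as sequence. Shown are 200 bp of mm10 (GRCm38, from RefSeq, plus strand) centred on the midpoint of 6 members, each among the highest to hold a given motif or, for Jarid2, none of the 26 motifs searched. Capitals mark the match to the motif that chose the member. The member of Pebp4 (chr14:69861501-69861680, intron 3) stands for CTCF. That of Col26a1 (chr5:136790941-136791120, intron 3) holds the full palindromic site of NFI, and that of Ildr2 (chr1:166280661-166280880, intron 3) an RFX site on the minus strand. The member of Vps37c (chr19:10709501-10709660, intron 2) holds the NEUROD type of E-box, CAGATG, and that of Myo3b (chr2:70126901-70127100, intron 8) the AP-1 site TGACTCA, bound by FOS and JUN. The member of Jarid2 (chr13:44869561-44869700, intron 3) has no capitals.
Pebp4: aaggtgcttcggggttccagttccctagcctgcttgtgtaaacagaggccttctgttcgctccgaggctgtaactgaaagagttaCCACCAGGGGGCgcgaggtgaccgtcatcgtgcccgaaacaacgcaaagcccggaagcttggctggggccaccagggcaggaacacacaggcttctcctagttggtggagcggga
Col26a1: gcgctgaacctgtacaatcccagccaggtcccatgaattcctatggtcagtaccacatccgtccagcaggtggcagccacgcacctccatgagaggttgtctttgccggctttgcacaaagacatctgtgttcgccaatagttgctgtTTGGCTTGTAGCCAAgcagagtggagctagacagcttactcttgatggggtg
Ildr2: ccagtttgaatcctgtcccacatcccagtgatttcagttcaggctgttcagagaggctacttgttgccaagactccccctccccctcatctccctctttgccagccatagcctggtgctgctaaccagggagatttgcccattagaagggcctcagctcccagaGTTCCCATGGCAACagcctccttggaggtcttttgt
Vps37c: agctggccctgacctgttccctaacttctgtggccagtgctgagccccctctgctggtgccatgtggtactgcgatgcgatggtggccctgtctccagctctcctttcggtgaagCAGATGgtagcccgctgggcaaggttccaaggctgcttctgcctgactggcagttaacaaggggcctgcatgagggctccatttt
Myo3b: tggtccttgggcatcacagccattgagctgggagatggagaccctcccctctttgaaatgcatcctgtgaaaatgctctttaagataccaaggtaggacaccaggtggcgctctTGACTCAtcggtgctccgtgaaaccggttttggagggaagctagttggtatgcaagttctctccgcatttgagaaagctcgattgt
Jarid2: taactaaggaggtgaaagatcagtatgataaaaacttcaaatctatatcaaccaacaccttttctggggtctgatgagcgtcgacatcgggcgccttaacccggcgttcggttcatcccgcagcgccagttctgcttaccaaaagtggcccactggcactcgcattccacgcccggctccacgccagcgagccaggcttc

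These 6 were picked for height, the signal value that the authors deposited for each region, among members with the same motif or with none. All lie above the median member in both libraries, Ildr2 least so, and they do not stand for the members as a whole. The heights were 5.84 in replicate 1 and 7.44 in replicate 2 for Pebp4, 4.6 and 5.96 for Col26a1, 2.2 and 2 for Ildr2, 8.16 and 11 for Vps37c, 6.35 and 6.8 for Myo3b, and 6.68 and 11.2 for Jarid2. Footprints are short stretches within open DNA that are cut less often than their surroundings, as happens under a bound protein. Both libraries had a footprint over the centre of the CTCF match in Pebp4, the NFI match in Col26a1 and the AP-1 match in Myo3b. Over the RFX match in Ildr2 only replicate 2 had one, and over the E-box in Vps37c neither library did. Other listed motifs, not in capitals, matched in 4 of these windows. Col26a1 also held matches to CTCF and to the E-boxes CAGATG and CAGGTG, and Myo3b held CAGGTG. In Myo3b the letters around CAGGTG, just before the AP-1 match, differ at 1 base from the CTCF pattern searched. Pebp4 also held a FOX match and Ildr2 an NFI half-site, TTGGCA. A footprint over a match does not show which protein was bound. Jarid2, without any of the motifs, held 3 footprints in replicate 1 and 4 in replicate 2. In a search of the assembled autosomes none of the 6 had a second copy with 90% identity over 90% of its length. Copies on other chromosomes, or in sequence missing from the assembly, could not be found this way. Whether the height of Jarid2 or any other member comes from such copies was not tested.

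Deep intronic regions were lower and narrower than promoter regions and close to deep intergenic ones. Their median height was 0.993 in replicate 1 and 1.17 in replicate 2, which average 1.08 ± 0.124 (SD, n = 2). Deep intergenic regions had medians of 0.955 and 1.13, start-proximal ones 1.16 and 1.46, and promoter regions 1.6 and 2.16. Among the members the 10th and 90th percentiles were 0.585 and 2.12 in replicate 1 and 0.612 and 2.81 in replicate 2, so the classes overlapped widely. Members had a median width of 180 bp (90th percentile 240, greatest 714), against 236 bp at promoters. Their median GC content was 52.1%, against 63.6% at promoters, and 59% of them, 3227 regions, held no base that the reference marks as a repeat.

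**Figure D1:**
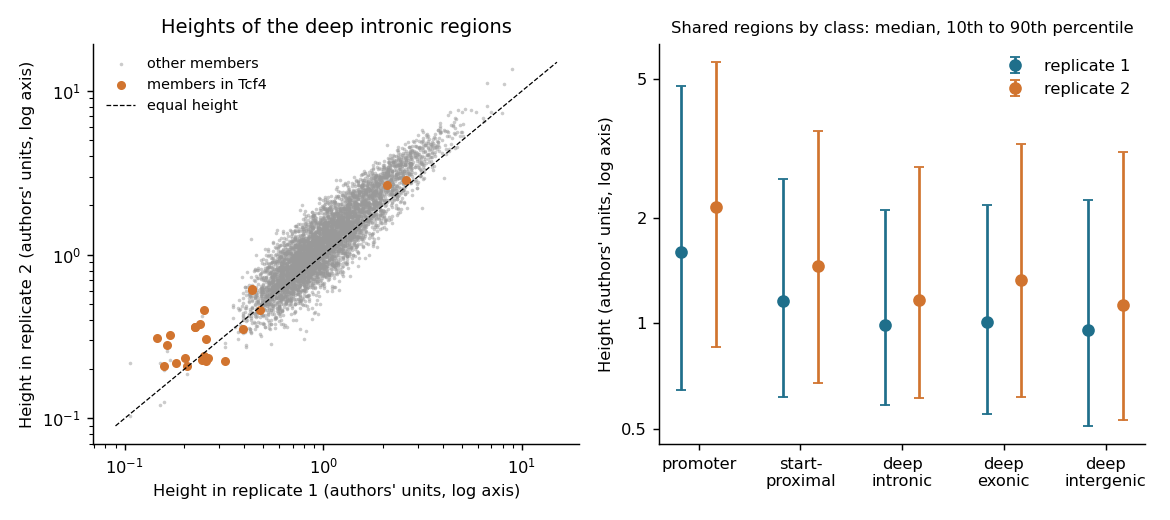
Left, height of each of the 5470 members in replicate 1 (x axis) and replicate 2 (y axis), both in the authors' units on log axes, with the 23 members in Tcf4 in orange and equal heights dashed. Right, median height per class and library on a log axis, with bars from the 10th to the 90th percentile of regions; deep intronic medians (0.993 and 1.17) lie next to deep intergenic ones (0.955 and 1.13) and below promoter regions (1.6 and 2.16).

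The 2 libraries ranked the members alike. Across members, log2 heights had a Pearson correlation of 0.904 and heights a Spearman correlation of 0.882, as a description over regions that are not independent samples. The log2 ratio of replicate 2 to replicate 1 had a median of 0.24 and ran from -0.25 at the 10th to 0.69 at the 90th percentile. The greatest excess in replicate 2 was at Ccdc85a (0.434 against 1.24), followed by Megf6 (0.779 against 2). The greatest excess in replicate 1 was in intron 1 of Fat3, a giant atypical cadherin (0.804 against 0.306), followed by Iqcm (0.817 against 0.344) and Meis2, a homeodomain factor of forebrain development (0.943 against 0.432). At Fat3, within the interval of replicate 1, 240 bases passed a false discovery rate of 0.001 for the authors' cut rate in replicate 1 and 118 in replicate 2. Both libraries thus had passing bases there, and a difference in open extent was not tested.

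The highest member by mean rank was in intron 2 of Gphn, the gene of gephyrin, which anchors glycine and GABA-A receptors at inhibitory synapses (chr12:78350861-78351100). It had a height of 8.96 in replicate 1 and 13.7 in replicate 2, the greatest of any member in each library. Next came Vps37c, a subunit of the ESCRT-I sorting complex, and Jarid2, a partner of the Polycomb repressive complex, both shown above. Atoh8, a basic helix-loop-helix factor, had 6.68 and 8.12. The growth factor receptor genes Igf1r (7.89 and 7.36) and Fgfr2 (5.19 and 7.79) and the channel subunit gene Cngb1 (5.56 and 7.64) were also among the 10 highest, with Pebp4 and Lrig2 (4.98 and 7.45). The member of Fgfr2 lies in an annotated intron of 2909 kb, and the annotated body encloses 29 other protein-coding genes. Position alone therefore ties this member only weakly to Fgfr2. None of the 10 had a near-identical copy on the assembled autosomes, and copies outside them were not searched for. They lay 12.4 kb (Vps37c) to 29.5 kb (Gphn) from the nearest start. At the other end, the lowest member was an 80 bp region in intron 3 of Ptprn2, with heights of 0.107 and 0.104 and no footprint in either library.

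Most members held footprints. In replicate 1, 5188 members (94.8%, exact interval 94.2 to 95.4) held at least 1 footprint wholly inside, against a background of 92.4% of all shared autosomal regions. In replicate 2 the count was 5248 (95.9%, 95.4 to 96.4) against 93.1%. The mean share was 95.4% ± 0.776 (SD, n = 2). Deep intergenic regions had 94.6% and 95.3% and promoter regions 89.1% and 90.3%. A member held 2.4 footprints on average in replicate 1 and 2.65 in replicate 2, which covered 20.4% and 23.5% of its bases. In 4769 members (87.2%) at least 1 footprint of replicate 1 overlapped one of replicate 2, and 92 members (1.68%) had none in either library. The same 2 shares were 86.4% and 1.92% in deep intergenic, 88.5% and 2.35% in start-proximal and 79.6% and 5.88% in promoter regions. The share with a footprint rose with height, from 85.1% and 87.8% in the lowest height quintile of members to 99.6% and 99.7% in the highest, and over the same quintiles the median width rose from 130 to 200 bp.

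The members richest in footprints were wide. Intron 2 of Notch1, the receptor that keeps neural progenitors undifferentiated, held the widest of all (chr2:26487287-26488000, 714 bp), with 9 footprints in replicate 1 and 10 in replicate 2 at modest heights of 1.66 and 1.85. A member of 580 bp in the first intron of Ntm, which encodes the adhesion protein neurotrimin, held 12 and 6, with heights of 0.936 and 1.01. Ccdc93 (540 bp) held 7 and 10, Gm44511 (420 bp) 9 and 8 and Lrrk1 (480 bp) 8 and 9.

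Per base, deep intronic sequence was open somewhat more often than deep intergenic sequence. There were 11.3 members per Mb over 484 Mb that met the position rule, against 8.82 regions per Mb over 974 Mb of deep intergenic sequence, a ratio of 1.28 (exact interval 1.24 to 1.33). With the regions of 1 library the ratio was 1.3 in replicate 1 and 1.31 in replicate 2. Repeats cover 29.1% of the deep intronic and 38.7% of the deep intergenic sequence. With all regions still counted, but only the sequence outside repeats used as length, the ratio was 1.11. Densities by chromosome ran from 7.38 per Mb on chromosome 3 to 15.3 on chromosome 11.

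Members thinned out away from starts and in the longest genes. Density fell from 13.1 per Mb at 10 to 20 kb from the nearest start to 12 at 20 to 50 kb, 9.42 at 50 to 100 kb, 6.82 at 100 to 200 kb and 5.08 beyond 200 kb. Heights fell along the same steps, from medians of 1.07 and 1.28 to 0.695 and 0.787. The median distance was 24.6 kb, and the farthest member lay 600 kb from a start, in Ptprd, a receptor phosphatase gene of synapse formation, with heights of 1.1 and 1.6 and 3 and 4 footprints. Values on both sides of the limit were alike: 300 members at 10 to 11 kb had medians of 1.06 and 1.29, and 347 shared regions in coding gene bodies at 9 to 10 kb had 1.07 and 1.33. By the amount of deep intronic sequence in the gene, density fell from 14.5 per Mb in genes with under 50 kb to 7.08 in the 60 genes with over 800 kb.

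Members were also denser toward the 3′ ends of genes. Density rose from 8.23 per Mb (exact interval 7.17 to 9.41) in the first 10% of the host gene to 15 (13.9 to 16.3) in the last 10%, in sequence that all met the distance rule. In genes with under 100 kb of deep intronic sequence the first 20% of the gene had 8.72 per Mb and the last 20% had 18, and in genes with over 400 kb the values were 6.12 and 8.9. Genes of 100 to 400 kb had 11.3 in the first of these steps of 20%, 10.3 in the second and 13.3 in the last. First introns of the longest transcript held 1061 of the 5227 members that could be placed in an intron of it, 20.3% (19.2 to 21.4), and 22.1% of the deep intronic sequence. Introns 2, 3 and 4 held 833, 643 and 406.

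**Figure D2:**
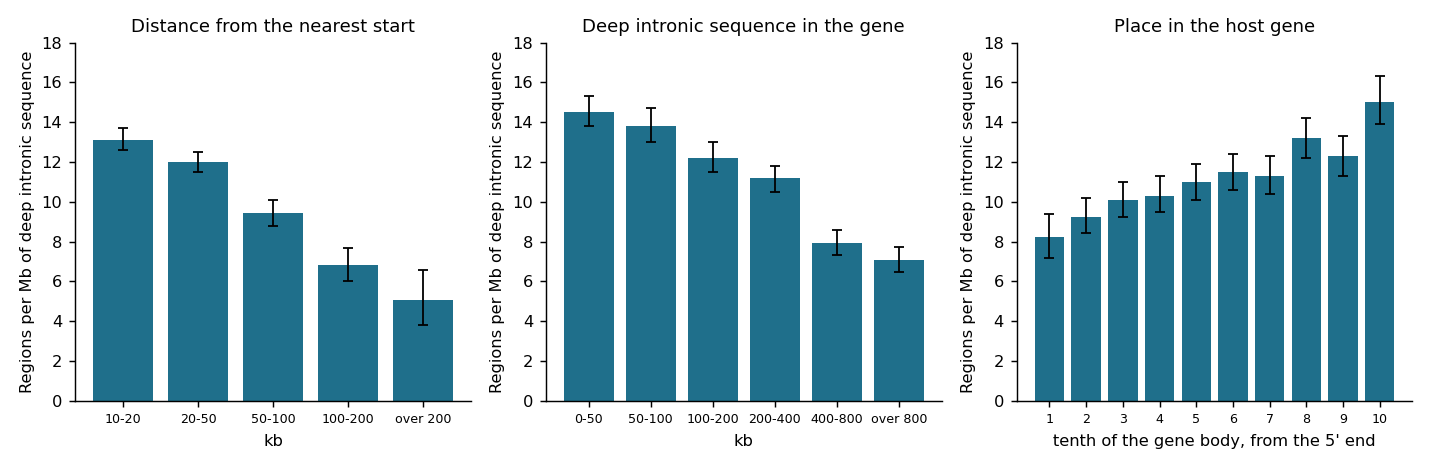
Members per Mb of deep intronic sequence, by distance from the nearest transcript start in kb (left), by the deep intronic sequence of the host gene in kb (middle) and by steps of 10% of the host gene from its 5′ end (right), with exact 95% intervals that cover counting error only. Density falls from 13.1 to 5.08 per Mb with distance and from 14.5 to 7.08 with gene size, and rises from 8.23 to 15 along the gene.

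The members lay in 2501 genes, 29.8% of the 8390 autosomal protein-coding genes with any sequence that could hold one. A single member was found in 1369 genes, 2 to 4 in 883 and 5 or more in 249, and these 249 held 35% of all members. Of the 131 genes with at least 500 kb of deep intronic sequence, 8 held none: Naaladl2, the cadherin gene Cdh12, Immp2l, Sntg1, Nkain3, Fstl5, Fgf14 and Skint5. These 8 were singled out after their values were seen. In the first 7 a promoter was open in both libraries, so an open promoter and 569 kb (Fgf14) to 1187 kb (Naaladl2) of deep intronic sequence went without a shared deep intronic region.

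By number, Gm20388 and Fgfr2 held most members. Gm20388 on chromosome 8 had 54 and Fgfr2 27, but these annotated bodies enclose 71 and 29 other protein-coding genes, and all 15 members of the transcriptional coregulator gene Gse1 lie in Gm20388 too. Tcf4, the gene of an E-protein that pairs with tissue-specific basic helix-loop-helix factors, had 23. Ntm had 21, with heights of 0.597 to 2.73 in replicate 1 and 0.683 to 3.65 in replicate 2. Camta1, a calmodulin-binding transcription activator gene, and Rbfox1, a neuronal splicing factor gene, had 18 each, and the acid-sensing channel gene Asic2 17. Lsamp, like Ntm of the IgLON adhesion family, and Pde4d, a cyclic AMP phosphodiesterase gene, had 15 each, spread over 1991 kb and 1199 kb. Counted in replicate 2 alone, Gm20388 had 101, Fgfr2 48, Gse1 31 and Pde4d 23. Per 100 kb of their deep intronic sequence these genes differed widely, from 0.753 in Lsamp to 14.8 in Tcf4.

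**Figure D3:**
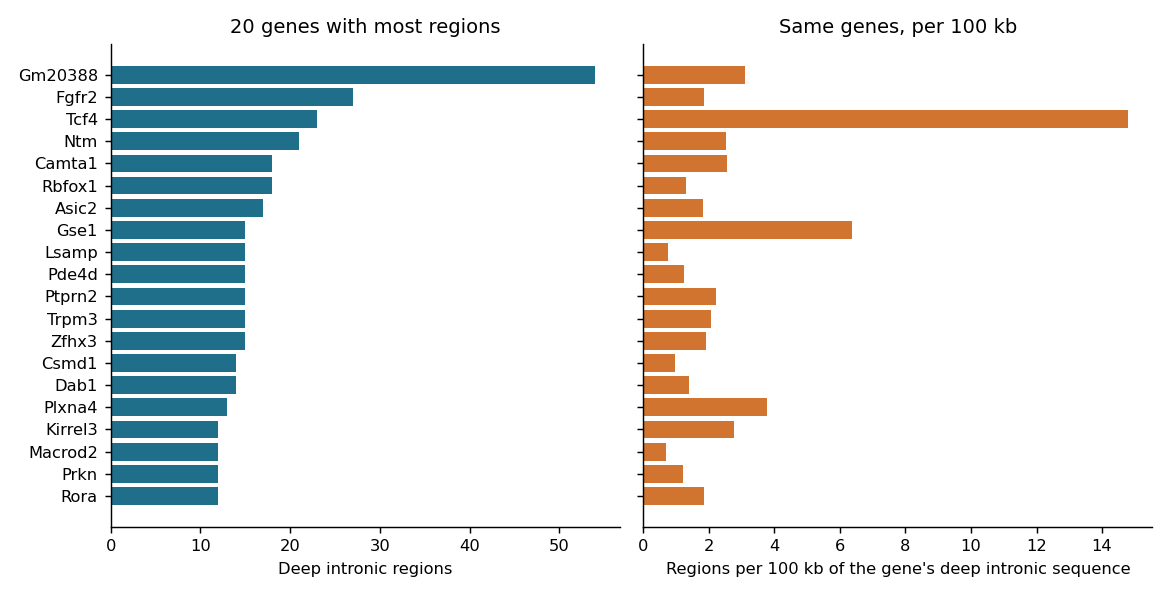
Number of members (left) and members per 100 kb of the gene's deep intronic sequence (right) in the 20 protein-coding genes with most members; Gm20388 and Fgfr2 enclose other genes. Gm20388 leads by number with 54, and Tcf4 per 100 kb with 14.8.

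Among genes with at least 50 kb, Tcf4 led in density as well. Zmiz1, a coactivator, held 9 members in 75.2 kb (12 per 100 kb), and Zmynd8, a chromatin reader, held 6 (11.5). Smad6, an inhibitor of BMP signalling, held 5 (9.46), as did Ccdc85c (8.96), Vac14 (8.24), Abr (7.8), Vit (7.44) and Prkar1b, a regulatory subunit of protein kinase A (7.31). These counts depend on the distance rule: at 20 kb Zmiz1 held 3 members, Vit 3, Smad6 and Ccdc85c 2 each, and Vac14 and Abr 1 each, while Tcf4 held 21, Zmynd8 5 and Prkar1b 4. Among these 9 genes, Tcf4 included, Vit alone had a promoter closed in both libraries, although its 5 members had heights of up to 3.44 and 4.4 and all held footprints.

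Tcf4 held the most members within 20 kb on the autosomes, and they were low. In its intron 3, 19 members lay within 19.7 kb (chromosome 18 from 69369447 to 69389152), with heights from 0.145 to 0.478 in replicate 1 (median 0.239), and 0.208 to 0.617 in replicate 2 (median 0.311). All lay below the median member in each library. A footprint was found in 7 of the 19 in replicate 1 and in 16 in replicate 2. The highest of the run in replicate 2 (320 bp) had 0.44 and 0.617 with 5 footprints in each library, and the highest in replicate 1 (340 bp) had 0.478 and 0.459 with 7 and 5. Of the 4 other Tcf4 members, 2 lay just beyond the run in the same intron and were as low (0.258 and 0.224, and 0.245 and 0.229). By contrast, one in intron 6 with 2.1 and 2.67 and one in intron 8 with 2.6 and 2.86 stood above all of these in both libraries. Tcf4 supplied 18 of the 100 lowest members. The count depended on how regions were matched: with a reciprocal overlap of 50% Tcf4 held 11 members, in the stronger 50% of regions 2, and in replicate 2 alone 46. No near-identical copy of these sequences was found on the assembled autosomes, the only sequence searched.

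Of the next 4 runs, 3 were higher. Wdtc1 held 6 members within 12.5 kb, over several introns, with heights from 0.88 to 3.26 and from 1.27 to 4.65 and footprints in every member in both libraries. Ksr2, a scaffold of the MAP kinase pathway, held 6 within 16.6 kb (0.679 to 1.87 and 1.19 to 2.67), all with footprints. Nfib, itself a gene of the nuclear factor I family, held 5 within 9.84 kb (0.968 to 1.92 and 1.01 to 1.89), with footprints in 4 members in replicate 1 and 3 in replicate 2. The run of 5 in intron 1 of Phactr3, a regulator of protein phosphatase and actin, spanned 1.91 kb and was low like that of Tcf4, at 0.151 to 0.704 and 0.186 to 0.858, with footprints in 2 and 3 members. Over all members the nearest other member lay a median of 34.1 kb away, and 22.1% had one within 5 kb.

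Gene groups differed in how densely they carried members, beside 11.3 per Mb over all protein-coding genes. Counts of genes with a member are over the list's genes with any deep intronic sequence, for which the share over all genes was 29.8%, and over those with 50 kb or more, for which it was 67.6%. Neuronal and forebrain transcription factor genes held 130 members in 20 of 30 genes (18 of 24 with 50 kb or more), 17 per Mb. Without Tcf4 the value was 14.3. Camta1 (18), Zfhx3 (15), Rora (12), Auts2 (11) and Nfib (10) followed Tcf4 in that list, while in Nfia 4 members included one with 4.94 and 5.6 and in Zbtb20, a factor that hippocampal pyramidal neurons need, 3 members reached 4.37 and 4.76. Voltage-gated calcium channel genes had 40 members in 10 of 13 genes (9 of 11), 15.2 per Mb, led by Cacna1c (8), the L-type channel of neurons and heart, Cacna2d3 (7) and Cacna1d (5). Neuronal RNA-binding factor genes had 47 in 7 of 13 (7 of 12), 12.7 per Mb, with Rbfox1 (18) and Msi2 (11) ahead of Celf4 and Rbfox3 (6 each). The list of phosphodiesterase, kinase and related signalling genes had 73 in 12 of 14, all with 50 kb or more, 11.7 per Mb.

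Of 24 genes of axon guidance, all with 50 kb or more, 21 held at least 1, 85 in all and 11.2 per Mb. The semaphorin receptor gene Plxna4 had 13, the midline repellent gene Slit3 10, and the receptor genes Ephb2 and Robo1 8 each, with a highest member of 3.63 and 5.19 in Ephb2. The 4 IgLON genes with deep intronic sequence, Ntm (21), Lsamp (15), Opcml (6) and Negr1 (3), held 45, or 10.2 per Mb. Postsynaptic scaffold and signalling genes had 51 in 10 of 14 (8 of 10 with 50 kb or more), at 9.74 per Mb, led by Dlg2 (11), Dlgap1 (10) and Magi1 (8). AMPA, kainate and NMDA receptor genes had 47 in 9 of 14 genes (8 of 12), at 9.52 per Mb, among them Gria1 with 8 and Grik4, a kainate receptor gene of CA3 neurons, with 7 and a highest of 3.88 and 5.51. Potassium channel genes had 39 in 11 of 17 genes (11 of 15), at 8.56 per Mb.

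In 4 lists of adhesion and receptor genes the value was below 7 per Mb. Classical cadherins had 6.57 members per Mb, of which Cdh4 and Cdh13 held 11 each of 28, and 6 of 13 genes held none. GABA-A receptor subunits had 6.02, with members in 6 of 12 genes (6 of 8 with 50 kb or more), led by Gabrb1 (4). Neurexins, neuroligins and their partners had 4.54, with Cntnap2 (11) and Nrxn3 (10) holding most of 41 members in 9.03 Mb. Metabotropic glutamate receptors had 4.24, with members in 6 of 6 genes but no more than 2 in any. Over all genes density falls with the amount of deep intronic sequence, as given above, and the part of gene size in these values was not tested.

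Lists of genes of other cell types and organs covered a like range. Astrocyte genes had 14.6 members per Mb (15 members, with 3 each in Gli2, Gli3, Glis3 and Ntrk2), microglial genes 13.7 (8 members), endothelial and mural genes 10.2 (9), oligodendrocyte lineage genes 6.77 (8) and interneuron genes 2.11 (4). Liver, kidney and gut genes had 14.1 (9 members), blood and skin genes 10.8 (8) and muscle genes 8.6 (7). These counts are small, and the lists differ in how often promoters were open, from 2 of 16 genes in the liver, kidney and gut list to 16 of 16 in the postsynaptic list.

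The promoters of hosts were mostly open, as were those of most genes with deep intronic sequence. Of the members in 1 gene body, 84.1% lay in a gene with a promoter open in both libraries and 10.1% in a gene whose promoter was closed in both. Per Mb the difference was small, 11.4 against 10.2, a ratio of 1.11 (exact interval 1.02 to 1.22). Within a class of length the values stood further apart: among genes with 50 to 100 kb, 57.6% of 786 with an open and 45.1% of 162 with a closed promoter held a member, and densities were 14.7 and 11.2 per Mb. Members in genes with closed promoters had median heights of 0.955 and 1.19, those in genes with open promoters 0.993 and 1.16. The endothelial adhesion gene Pecam1, closed in both libraries, held 4 members of up to 3.21 and 3.21, and Ptprc, the gene of the leukocyte protein CD45, held 3 of up to 1.04 and 1.28. Most other genes of the endothelial and microglial lists that were closed in both libraries held none. Cdh5, Flt4, Tek, Tie1, Cx3cr1, P2ry12 and Runx1 had 0 members, and Itgam had 1.

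Promoters of marker genes served to check the tissue label. The neuronal genes Rbfox3, Map2, Snap25 and Syt1, the dentate factor gene Prox1, the CA1 gene Wfs1 and Grik4 were open in both libraries, as were the glial genes Gfap, Slc1a2, Olig1, Olig2 and Mbp, the endothelial gene Kdr and the interneuron gene Gad1. The dentate gene Dsp, the interneuron gene Gad2 and the microglial genes Csf1r and Tmem119 were open in replicate 2 alone, and the astrocyte genes Aqp4 and Aldh1l1 in replicate 1 alone. The CA1 genes Fibcd1 and Mpped1 were closed in both, as were the oligodendrocyte gene Sox10, microglial Cx3cr1, endothelial Cldn5 and Pecam1, interneuron Dlx1, and Alb, Acta1, Krt5 and Hoxa9 of other organs or body parts. The tissue was not sorted into cell types, so which of them carried a given member cannot be told apart. A low height can stand for few cells with the region open or for a region weakly open in many.

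Motifs were counted in 200 bp centred on each member and in 10644 windows placed 5 kb to either side, outside all regions of both libraries. The flanking windows were not matched on base composition, and had a mean GC content of 44.5% against 51.2% in the members. Both strands were searched for exact matches. The letters were TTGGCA for the NFI half-site, CAGATG (NEUROD), CAGCTG (ASCL), CAGGTG (E-protein) and CATATG (OLIG) for the E-boxes, TGACTCA for AP-1, TGACGTCA for the cyclic AMP response element (CRE), GCGTGGGCG for EGR, ACAATGG for SOX, TAATTA for homeodomain factors, ATGCAAAT for POU, CCGGAAGT for ETS, GAGGAAGT for PU.1, ACATTCC for TEAD, TGTTTAC for FOX, GGGCGG for SP and KLF factors, ATCAAAG for TCF and LEF and TTCCNGGAA for STAT. CTCF (CCA, any 2 bases, AG, any 2 bases, GGC), the full NFI site, RFX, MEF2, REST, ROR, GR and NRF1 were searched by longer consensus sequences. A match is a string of letters, not a binding site.

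CTCF had the highest ratio among the motifs with a match in the flanks. It matched in 1081 members, 19.8% (exact interval 18.7 to 20.8), against 1.1% of flanking windows, a ratio of 18 (14.8 to 21.9). Start-proximal regions had 25.1%, deep intergenic regions 21.1%, promoter regions 5.91% and all shared regions 15.3%. Members with a match had median heights of 1.33 and 1.79 and those without 0.936 and 1.07. By quintile of height the share rose from 7.59% through 11.5%, 16.7% and 23.6% to 39.4%. The footprint lists placed a footprint over the match centre in 92.6% of 1096 matches in replicate 1 and 94.4% in replicate 2. In the windows of all members, with or without a CTCF match, footprints covered 19.1% and 22.7% of the bases.

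The half-site of nuclear factor I went the other way with height. It matched in 26.3% of members (25.1 to 27.5) and 9.78% of flanking windows, a ratio of 2.69 (2.48 to 2.91). Deep intergenic regions had 23.3%, start-proximal regions 18.2%, promoter regions 9.41% and all shared regions 16.2%. The share fell from 31.8% in the lowest height quintile to 18.6% in the highest. Footprints lay over the centre of 39.7% of matches in replicate 1 and 43.4% in replicate 2. The full palindrome matched in only 9 members and 2 flanking windows, with footprints over 7 and 9 of the 9 matches. RFX, a family that acts on genes of cilia, matched in 13 members and 0 of 10644 flanking windows (upper exact limit 0.0347%), with footprints over 14 and 15 of 17 matches.

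The E-boxes differed by their central letters. CAGATG, the NEUROD type, occurred in 25.9% of members against 15.9% of flanking windows (ratio 1.63, 1.52 to 1.75), and CAGCTG, the ASCL type, in 20.8% against 8.76% (2.38, 2.18 to 2.6). CAGGTG, the type of E-proteins and ZEB repressors, occurred in 14.9% against 13.9% (1.07, 0.981 to 1.17), and CATATG, the OLIG type, in 3.36% against 5.7% (0.59, 0.497 to 0.697). The NEUROD type was found in 25.1% of deep intergenic, 20.3% of start-proximal and 8.76% of promoter regions, and the ASCL type in 19.8%, 19.5% and 12.6%. With height the share of the NEUROD type went from 27.8% in the lowest quintile to 21.7% in the highest, whereas CAGGTG went from 10.7% to 19.7%. Of 901 CAGGTG matches 131 overlapped a CTCF match, and footprints lay over 98.5% and 99.2% of these but over 36% and 39.7% of the other 770. Only exact CTCF matches were set apart, so sites 1 base off the pattern, as in Myo3b, remain among the 770. With CTCF matches left out, CAGGTG was in 12.9% of members (12 to 13.8), below the 13.9% of flanking windows, whose matches were all counted. Of 1681 CAGATG matches 56 overlapped a CTCF match. The centres of 32.8% and 33.4% of CAGATG matches and of 28.6% and 33.7% of CAGCTG matches were under footprints.

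**Figure D4:**
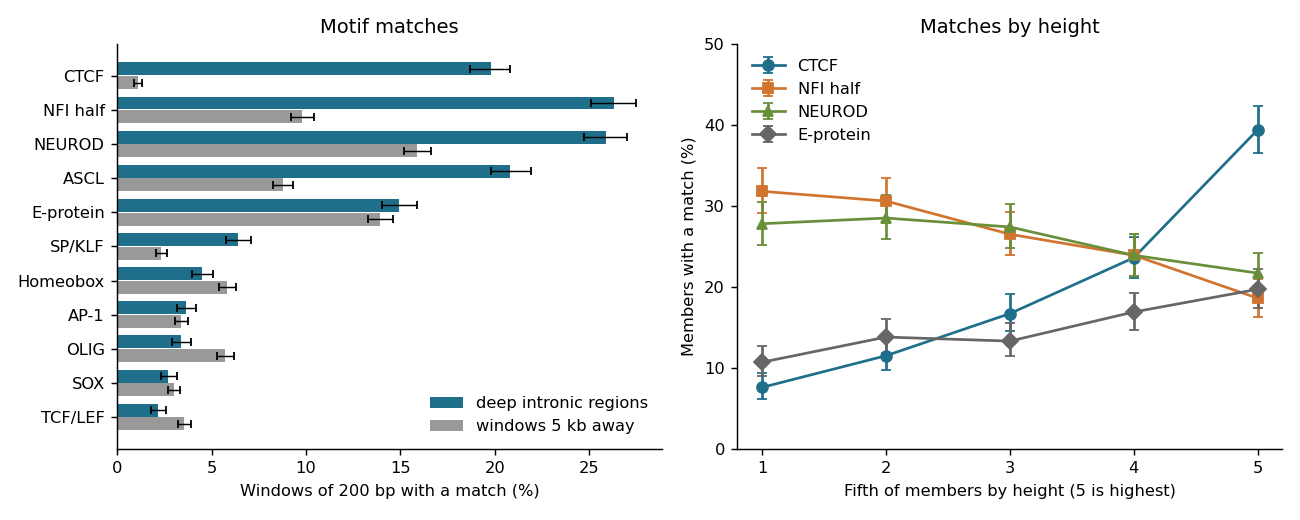
Left, share of 200 bp windows with a match in members and in windows 5 kb away, with exact 95% intervals for counting error. Right, share of members with a match by height quintile, lowest to highest, with the same intervals. CTCF rises from 7.59% to 39.4% with height while the NFI half-site falls from 31.8% to 18.6%.

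For sites of activity-regulated factors the ratio to the flanks had an interval that includes 1, or the matches were few. AP-1 occurred in 198 members, 3.62% against 3.39% (ratio 1.07, 0.893 to 1.27), and MEF2 in 21 members, a ratio of 0.888 (0.504 to 1.52). CRE occurred in 16 members (1.83, 0.866 to 3.86), and EGR in 7 members and 1 flanking window. Footprints lay over 11.1% and 13.5% of AP-1 centres, over 2 and 4 of 21 MEF2 centres and over 9 and 10 of 16 CRE centres. The homeodomain letters TAATTA were less frequent in members (4.48% against 5.81%, ratio 0.771, 0.663 to 0.896) and so were those of TCF and LEF (0.611, 0.492 to 0.753), while GGGCGG of SP and KLF factors was more frequent (2.74, 2.32 to 3.23). The first 2 of these 3 are rich in A and T and the last is made of G and C alone, and the part of base composition in these ratios was not tested. Of all members 1052 held none of the 26 motifs.

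**Figure D5:**
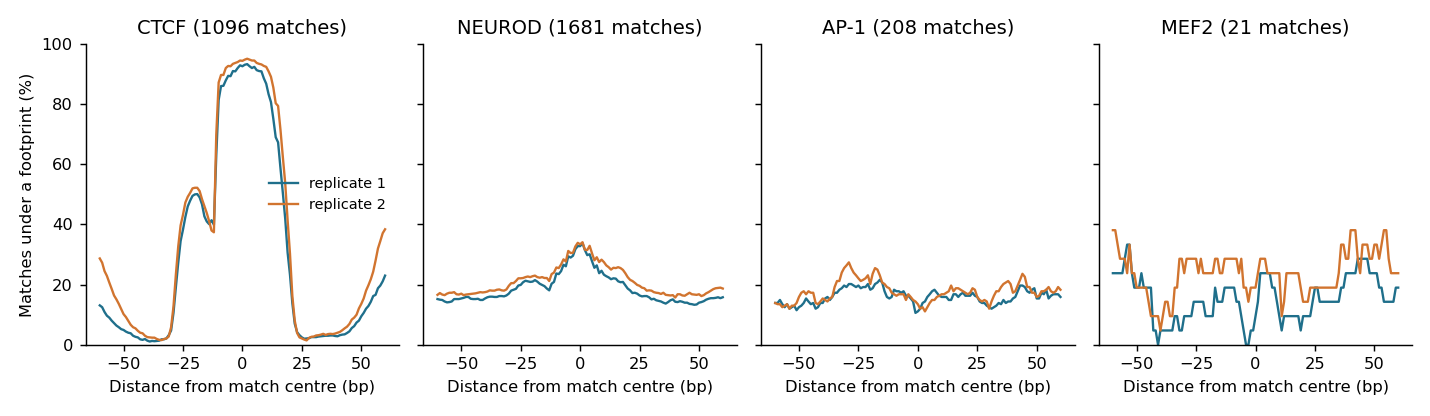
Share of motif matches in members that lie under a footprint (y axis, %) by distance from the match centre in bp, in the direction of the match, for each library. Over CTCF centres 92.6% and 94.4% are covered, with a second, lower rise upstream, over NEUROD centres 32.8% and 33.4%, and over AP-1 centres 11.1% and 13.5%; the 21 MEF2 matches give uneven lines.

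CTCF matches were not evenly placed on the strands of their host genes. Of 1052 members with 1 match and 1 host gene, 448 had it on the gene's own strand, 42.6% (exact interval 39.6 to 45.6). In flanking windows the share was 57.1% of 112 (47.4 to 66.5). The NFI half-site was on the gene's strand in 56.5% of 1172 members (53.6 to 59.3) and in 52.5% of 942 flanking windows (49.3 to 55.8). For NEUROD the share was 51% of 1164 (48.1 to 53.9) and for AP-1 52.9% of 187 (45.5 to 60.3), both with intervals that include an even split.

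Regions that met the position rule in 1 library alone were low. Replicate 1 had 6358 deep intronic regions, of which 86% were shared, and the 888 others had a median height of 0.597. Replicate 2 had 9196, of which 59.3% were shared, and the 3746 others had a median of 0.598. Of these, 69.1% and 57.6% overlapped the other library's longer list of regions. Sharing of deep intronic regions differed little from that of deep intergenic ones, at 87.4% and 60.5%.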

How the data were processed

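DNase-seq of 2 hippocampus libraries was analysed on mm10. Per the notes deposited with each sample, region lists and cut rates were made from the filtered alignments of each library separately and a second, unnamed source, and footprints from those cut rates. Not given in the sources used here: callers, their versions and thresholds, and read depth. The region height is a signal that the authors deposited, the false discovery rate of the cut rate is a p-value adjusted by the authors and listed up to 0.05, and footprints carry a deposited p-value of 0.01 in every row. The shorter of the 2 region lists of each library was used.

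Distances ran from the edge of a region to GENCODE M21 starts, and deep intronic and deep intergenic sequence was counted base by base, without unknown bases. The height in replicate 2 was that of the region with the longest overlap, and footprints counted if wholly inside the interval of replicate 1. A promoter was open where a region lay within 1 kb of any start of the gene. Introns were those of the protein-coding transcript with the greatest span. Intervals are 95% exact binomial, Poisson or conditional ratio intervals. Copies were searched for 38 members with BLAST 2.17.0. Python 3.11.15, numpy 2.4.6, pandas 2.3.3, scipy 1.17.1 and matplotlib 3.10.9 were used, and placement of regions and the motif search were tested on simulated data (3000 of 3000 regions and 7800 of 7800 motifs placed right).

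The members, gene lists, motifs and alternatives were chosen with earlier results of these data known. The rule for named genes takes the 10 genes with most members, the 10 densest with at least 50 kb, up to 3 leading genes per list, and hosts of the 10 highest members, the 5 richest in footprints, the 3 farthest, the 3 at each end of the ratio between libraries, the 5 densest runs within 20 kb and the printed sequences, which are the highest members with each motif outside chromosome 18; not all are named, and 3 genes are not reported here. Genes beyond it are markers, further list members, and the widest and lowest members, the last chosen after values were seen. Alternatives covered the region list, overlap, height, distance, starts, exons, motif window, footprint rule, transcript, repeats and each library alone.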

Additional observations from a re-analysis of the deposited data

How the results depend on the processing

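Of 68 recomputed values of the 7 summary results, 35 stayed within their limits and 33 moved, and of 193 values for single genes and motifs 150 stayed. The limits were a set factor for counts and the exact interval of the main value for the density ratio and for first-intron and motif shares. For heights and the share with a footprint the limit was the SD between the libraries. Only the density ratio was checked for a reversed direction, and it did not reverse. With the longer lists there were 10927 members, with a median height of 0.698, footprints in 87.2%, CTCF in 13.5% and first introns in 22%. In the stronger 50% of regions there were 2222 members in 1417 genes, with a height of 1.8, footprints in 99.4%, CTCF in 30.3% and first introns in 19.1%. At 20 kb there were 3323 members in 1495 genes, CTCF in 17.8%, first introns in 18.8% and a density ratio of 1.38, and at 5 kb CTCF was in 21.3%, first introns in 22.1% and the ratio was 1.21. The ratio was 1.15 with starts of protein-coding genes only. It was 1.11 with all regions set against the sequence outside repeats, so its size, though not its direction, rested on these choices. A reciprocal overlap of 50% gave footprints in 97.8% and CTCF in 22%, and footprints counted at an overlap of 1 bp gave 96.9%. The first intron of any transcript held 27.4%. With either library left out, and no sharing asked, there were 6358 to 9196 members in 2651 to 3142 genes, heights of 0.841 to 0.918, footprints in 90.6% to 92%, CTCF in 15.2% to 17.6%, first introns in 20.8% to 22% and density ratios of 1.3 to 1.31. The stronger 50% were selected by height, so their greater median height follows from the selection. For all other moves the cause was not tested. The depth of the libraries is unknown, which limits what the absence of a region or footprint shows. No paired analysis was possible because there is 1 group only.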
